A study of Mus musculus with 3 samples.

Results

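The levels of 8 genes of the voltage-gated sodium channel family were measured by RNA-Seq in hippocampal cells sorted for tdTomato. They were chosen by name, as 5 genes of pore-forming subunits (Scn1a, Scn2a, Scn3a, Scn8a and Scn9a) and 3 genes of beta subunits (Scn2b, Scn3b and Scn4b), out of the 52636 genes of the count table. All 8 were found. The choice was made with earlier results of these data known. The cells came from Camk2a-Cre +/-, Ai14 +/- male mice on C57BL/6J, aged 28 to 32 days after birth, and every library carries both alleles. Camk2a-Cre places Cre recombinase under the Camk2a promoter, and Ai14 is a reporter that makes the red protein tdTomato once Cre has acted. Cells were freed from whole hippocampi with papain and live tdTomato-positive cells were sorted. Each of the 3 biological replicates pooled cells of 2 to 4 mice. There is 1 group and no unsorted, Cre-negative or mutant sample, so the values below are levels in sorted cells and not enrichments or responses.

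Voltage-gated sodium channels open when the membrane depolarises and carry the inward current of the action potential. A single large pore-forming protein makes the channel, and the beta subunits, small proteins with an immunoglobulin-like domain outside the cell, set its gating and its place in the membrane. In hippocampal pyramidal neurons the channels are packed into the axon initial segment, where spikes start. Scn2a and Scn8a encode Nav1.2 and Nav1.6, the main channels of excitatory neurons, Scn1a encodes Nav1.1, best known from inhibitory interneurons, Scn3a encodes Nav1.3, known as a channel of the embryonic brain, and Scn9a encodes Nav1.7, known from peripheral sensory neurons.

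The pore-forming genes are close relatives, so their reads can resemble each other. Of the distinct words of 31 bases in a gene's annotated transcripts, 7.26% for Scn1a, 8.84% for Scn2a, 9.45% for Scn3a and 5.87% for Scn9a also occurred in another of the 8 genes, against 0.333% for Scn8a. At words of 150 bases the shares were 0.295% to 0.421% for the 4 genes and 0 for Scn8a. The 3 beta genes shared 0 words of either length. How reads that match several genes were treated is not given in the sources used here. The counts of Scn1a, Scn2a, Scn3a and Scn9a therefore carry an uncertainty from each other, whose size was not measured. A given number of misplaced reads would weigh most on Scn9a, with 315, 173 and 112 counts beside 24306, 13249 and 8247 for Scn2a. Words shared with genes outside the 8 were not examined.

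The genes lie in few places of GRCm38. Scn3a (chromosome 2, 65457118 to 65567627, minus strand), Scn2a (65620771 to 65767447, plus strand), Scn1a (66270778 to 66440840, minus strand) and Scn9a (66480080 to 66634962, minus strand) form a cluster on chromosome 2. Scn3a and Scn2a are transcribed away from each other across a gap of 53.1 kb, and Scn1a and Scn9a follow each other in the same direction with 39.2 kb between them. Scn8a stands alone on chromosome 15 (100869858 to 101045938, plus strand). The beta genes are on chromosome 9, with Scn2b (45117782 to 45130070) and Scn4b (45138395 to 45154152) only 8.32 kb apart and Scn3b (40269217 to 40291618) further away, all on the plus strand. The pore-forming genes span 111 to 176 kb with 27 to 35 merged exons, and the beta genes 12.3 to 22.4 kb with 4 to 6. Of the 8 genes, 7 shared no exon base with another gene. The exception was Scn9a, with 180 exon bases (1.41%) in common with the antisense gene Gm13629, which had 8, 11 and 0 counts. Without a stated strand setting, reads of both genes in these bases cannot be told apart.

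Levels are given in TPM (transcript reads per unit length, scaled to a fixed sum), computed here from the counts, the merged exon length of each gene and the sum over nuclear protein-coding genes. A gene was called detected at a CPM, its count scaled to a fixed library total, of at least 1 in each replicate. All 8 of the chosen genes were detected, against 12471 of the 17496 nuclear protein-coding genes with a count in any library, or 71.3%. Since the 8 were chosen with earlier results of these data known, no conclusion is drawn from this count. Of the 4 other pore-forming genes examined, given below, 0 were detected. The table holds 21883 nuclear protein-coding genes in all, and the share over those is lower. The median level of the 8 sodium channel genes was 152 ± 8.27 TPM (SD over replicates, n = 3). The median over the detected protein-coding genes was 37.6 TPM, and 6 of the 8 lay above it. The total of assigned counts was 48159841, 25686630 and 15833075 in replicates 1, 2 and 3, so replicate 1 gives the most precise values and replicate 3 the least.

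Among the pore-forming subunits, Scn8a and Scn2a were the abundant genes. Scn8a, which encodes the low-threshold channel of the distal initial segment, had 40601, 24208 and 14247 counts in replicates 1, 2 and 3. These correspond to 309, 348 and 350 TPM, with a mean of 336 ± 23.2 TPM (SD, n = 3). Replicate 1 was low and the others nearly equal. Scn8a took place 442 of the 12471 detected protein-coding genes, within the top 3.54%. Ranked by CPM, with no length, it took place 55.

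Scn2a, the channel that is spread over axons early in development and stays in the proximal initial segment, had 24306, 13249 and 8247 counts. Its levels were 229, 236 and 251 TPM, with a mean of 239 ± 11.4 TPM (SD, n = 3), at place 751, or 168 by CPM. Within each library Scn8a was higher, by 1.35-fold, 1.48-fold and 1.40-fold, and the ranges of both genes did not overlap.

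Scn3a, the gene of the embryonic channel, was also detected. It had 6490, 3398 and 2296 counts, or 62.5, 61.7 and 71.4 TPM, and a mean of 65.2 ± 5.40 TPM (SD, n = 3). Scn1a had 4130, 2123 and 1409 counts, or 44.4, 43.1 and 49.0 TPM, with a mean of 45.5 ± 3.09 TPM. In both genes replicate 3 was the highest and replicate 2 the lowest. Scn3a exceeded Scn1a by 1.41-fold, 1.43-fold and 1.46-fold in replicates 1, 2 and 3, and Scn2a exceeded Scn1a by 5.15-fold, 5.46-fold and 5.12-fold.

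Scn9a was detected but low, at place 11946 of 12471 by TPM. Its counts were 315, 173 and 112, which is 2.96, 3.07 and 3.40 TPM, with a mean of 3.14 ± 0.230 TPM (SD, n = 3). In replicate 3, the shallowest library, the exact 95% Poisson interval of this level was 2.80 to 4.09 TPM, which covers counting error only. A count of 0 would allow up to 3 counts, or 0.0911 TPM in that library, so Scn9a lay well above that limit. Neither the interval nor the limit covers reads that match related genes. Scn1a was 15.0-fold, 14.1-fold and 14.4-fold higher than Scn9a.

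**Figure D1:**
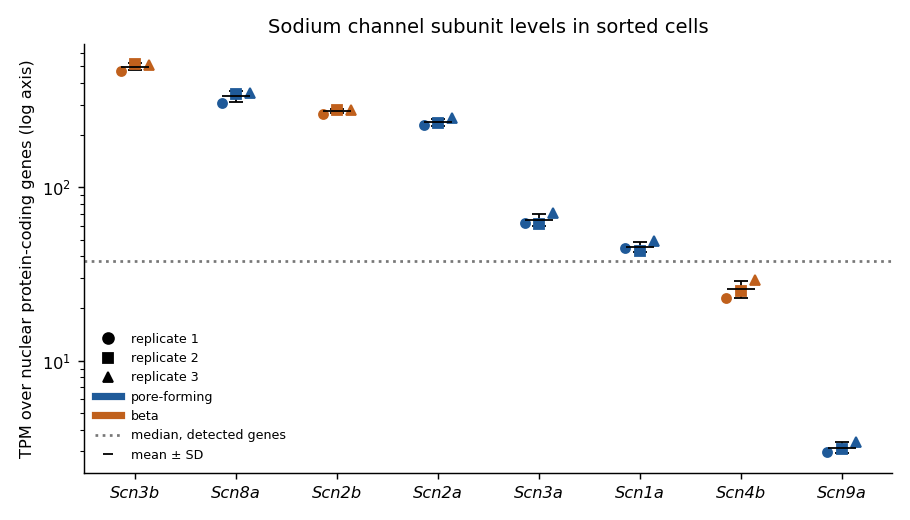
TPM of each sodium channel gene on a log axis, with 1 symbol per replicate, blue for pore-forming and orange for beta subunits, and black bars for the mean and SD (n = 3). The dotted line is the median of detected protein-coding genes at 37.6 TPM, and Scn4b and Scn9a lie below it.

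Expressed as shares of the summed level of the 5 pore-forming genes, the makeup hardly differed between libraries. Scn8a made up 48.8% ± 1.36 (SD, n = 3) and Scn2a 34.7% ± 0.634 of the sum. Scn3a followed with 9.48% ± 0.481 and Scn1a with 6.62% ± 0.333, while Scn9a contributed 0.456% ± 0.0125. The sum itself was 648, 691 and 725 TPM in replicates 1, 2 and 3. A share within a library does not depend on the scaling between libraries, and the depth of these libraries differs by 3.04-fold.

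**Figure D2:**
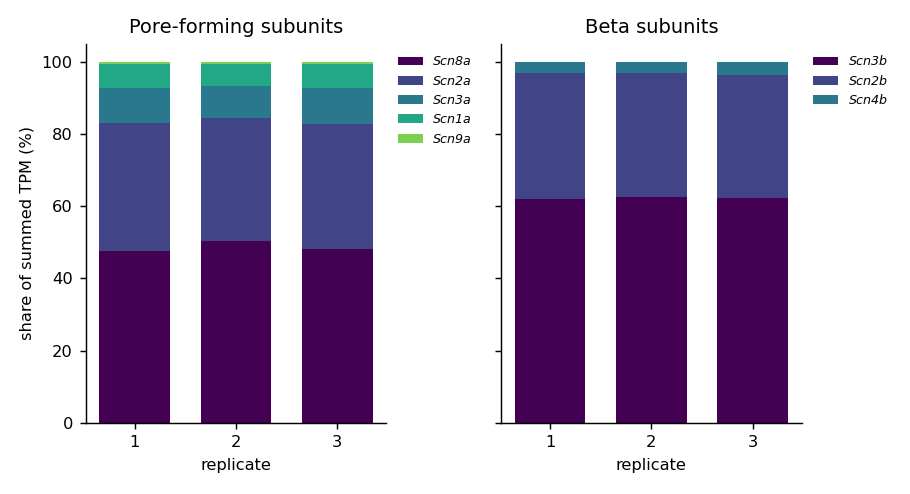
Share of each gene in the summed TPM of the pore-forming subunits (left) and of the 3 beta subunits (right), in percent, with 1 stacked bar per replicate. Scn8a takes 47.7% to 50.3% of the pore-forming sum, and Scn3b 62.1% to 62.7% of the beta sum.

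Of the 3 beta genes described here, Scn3b had the highest level. This gene encodes beta3, which binds the channel without a covalent bond, and it had 21545, 12393 and 7144 counts. Its levels of 473, 514 and 507 TPM gave a mean of 498 ± 21.8 TPM (SD, n = 3), at place 227, which was also the highest level of the 8 genes. Replicate 1 was again the lowest.

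Scn2b, whose product beta2 is tied to the pore-forming subunit by a disulfide bond, had 10333, 5767 and 3355 counts. At 266, 280 and 279 TPM, with a mean of 275 ± 7.96 TPM (SD, n = 3), it varied little. Scn3b exceeded it by 1.78-fold, 1.83-fold and 1.82-fold. Scn4b encodes beta4, the other disulfide-linked subunit, whose cytoplasmic tail can block the open pore and give resurgent current. It had 961, 557 and 373 counts, or 23.1, 25.3 and 29.0 TPM, with a mean of 25.8 ± 2.98 TPM. Scn2b was 11.5-fold, 11.1-fold and 9.62-fold higher than its neighbour Scn4b, which begins 8.32 kb downstream on the same strand. In shares of the sum of these 3 beta genes, Scn3b made up 62.3% ± 0.336, Scn2b 34.5% ± 0.389 and Scn4b 3.23% ± 0.289 (SD, n = 3).

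Ranked by TPM, the order ran from Scn3b through Scn8a, Scn2b, Scn2a, Scn3a, Scn1a and Scn4b to Scn9a. For each of the 7 pairs of neighbours the ranges over replicates did not overlap, and the first was higher in 3 of 3 libraries. The narrowest step was from Scn2b to Scn2a, with a log2 difference of 0.21 ± 0.05 (SD of the paired difference, n = 3), and the step from Scn8a to Scn2b was 0.28 ± 0.06. The widest steps were from Scn4b to Scn9a, at 3.04 ± 0.06, and from Scn2a to Scn3a, at 1.87 ± 0.06. An exact sign-flip permutation test over 3 libraries, two-sided, cannot go below p = 0.25, and gave that value for each pair. The pairs and their directions came from these same values, so no conclusion is drawn from the test.

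The order within each class did not depend on the length used, but the order between the classes did. Merged exons are 11.1 to 15.8 kb long in the pore-forming genes and 4.66 to 5.46 kb in the beta genes, of which 39.0% to 54.7% and 11.8% to 13.9% are coding. In all 8 alternatives of length, pseudocount and left-out replicate, the pore-forming genes kept the order Scn8a, Scn2a, Scn3a, Scn1a, Scn9a, and the beta genes the order Scn3b, Scn2b, Scn4b. The 3 beta genes in sum stood at 799 ± 31.9 TPM and the summed pore-forming genes at 688 ± 38.9 TPM (SD, n = 3), a log2 ratio of 0.22 ± 0.04. With the longest annotated transcript as the length this ratio was 0.0073, with the coding length 2.01, and with no length -1.23. The step from Scn2b to Scn2a likewise turned to -0.30 with the longest transcript. Whether transcripts of these 3 beta genes outnumber those of the 5 pore-forming genes is thus not settled by these counts.

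**Figure D3:**
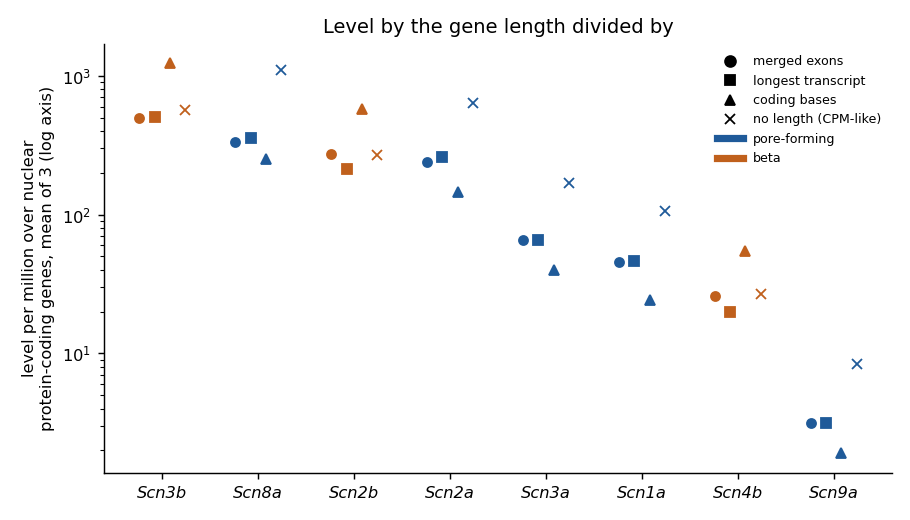
Mean level of each gene over 3 replicates, scaled over nuclear protein-coding genes on a log axis, when counts are divided by the merged exons, the longest transcript, the coding bases or no length. The 5 blue pore-forming genes keep their order under each choice, as do the 3 orange beta genes, while the classes shift against each other.

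The 8 genes varied little between replicates. The coefficient of variation of counts divided by size factors was 0.952% for Scn2a, 2.79% for Scn2b, 3.47% for Scn9a, 3.66% for Scn3b, 3.86% for Scn1a, 4.79% for Scn3a, 4.82% for Scn8a and 7.70% for Scn4b. All 8 lay below 8.75%, the median of the detected protein-coding genes. This median was not matched for level or count, and 6 of the 8 genes lay above the median level of the detected genes. Among the axon initial segment genes described below, the coefficient ran from 1.11% for Kcnq3 to 8.87% for Nfasc. For Scn2a the value was near the 0.892% that counting error alone gives, and for Scn9a it was below its counting error of 7.76%. For Scn8a it was well above the 0.676% of counting error. A coefficient from 3 libraries is itself imprecise. With single replicates left out, the coefficients ran from 0.0926% for Scn2a to 10.3% for Scn4b, and 7 or 8 of the 8 genes lay below the median of the detected genes.

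On the TPM scale, 6 of the 8 genes were highest in replicate 3, and the remaining 2, Scn2b and Scn3b, in replicate 2. Replicate 3 was also the highest for 46.6% of all detected protein-coding genes and for 66.6% of the 2317 detected genes of at least 8000 bp. Replicate 1 was the lowest for 6 of the 8, and for 31.3% of all detected protein-coding genes. The log2 TPM of Scn4b deviated from its mean by -0.15, -0.02 and 0.18 in replicates 1, 2 and 3, that of Scn3a by -0.06, -0.08 and 0.14, and that of Scn8a by -0.12, 0.05 and 0.06. For genes of at least 8000 bp the median deviation was -0.02, -0.05 and 0.08, and for genes under 2000 bp it was -0.01, 0.03 and -0.02. The part of gene length in these deviations was not tested.

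**Figure D4:**
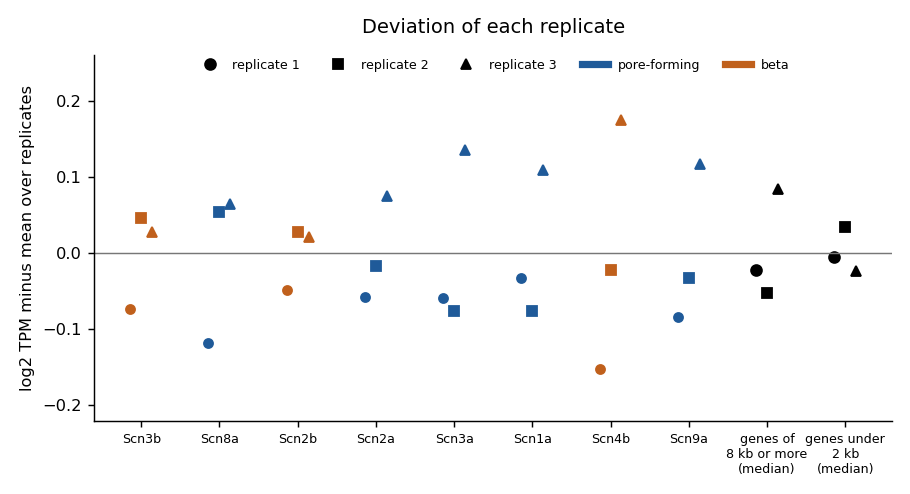
Log2 TPM of each sodium channel gene in each replicate minus its mean over the 3 replicates, with the median of detected protein-coding genes of at least 8000 bp and under 2000 bp in black. Deviations run from -0.15 to 0.18, both for Scn4b.

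The pore-forming genes examined outside the 8 were near 0. Scn7a, a glial and sensory sodium channel, had 42, 8 and 8 counts. Scn4a, the skeletal muscle channel, had 4, 9 and 16. Scn11a had 0, 0 and 1 counts. Scn10a had 0 in every library, which by the limit of 3 counts allows up to 0.0452, 0.0853 and 0.146 TPM. None of these 4 genes was detected by the CPM rule. Each took at most 0.121% of the summed level of the 9 pore-forming genes in any library.

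Genes of proteins that hold or modulate these channels were detected throughout, by a rule that 71.3% of nuclear protein-coding genes with any count also passed. The 7 genes of the axon initial segment list had a median of 174 ± 9.55 TPM (SD, n = 3), and all 7 lay above the median of detected protein-coding genes. Sptbn4, the beta-IV spectrin of the initial segment, had 324 ± 11.3 TPM. Ank3, which encodes ankyrin-G, the scaffold that binds sodium channels there, had 170 ± 15.8 TPM. Kcnq3, a potassium channel of the M-current held by the same scaffold, had 129 ± 6.20 TPM. Levels of Ank3 in replicates 1, 2 and 3 were 152, 177 and 181 TPM. Replicate 1 was the lowest for Ank3, but 4 of the 7 genes of the list, Sptbn4, Nfasc, Trim46 and Cntn1, were highest in replicate 1.

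The 4 intracellular FGF genes, whose products bind the tail of pore-forming subunits and shift their inactivation, had a median of 61.4 ± 2.20 TPM. Fgf13 was the highest of them at 157 ± 10.5 TPM, ahead of Fgf12 at 64.1 ± 8.27, Fgf11 at 58.8 ± 8.69 and Fgf14 at 41.4 ± 5.16 TPM. The ranges of Fgf12 and Fgf11 overlapped, while Fgf13 lay above and Fgf14 below both. All 7 genes of the regulator list were detected, with a median of 55.4 ± 3.47 TPM. They include Nedd4l, a ubiquitin ligase that removes sodium channels from the membrane, at 145 ± 16.8 TPM, and Csnk2b, a subunit of the kinase that strengthens their hold on ankyrin-G, at 120 ± 8.39 TPM. Prrt2, a brake on sodium channel availability, was the lowest of the list at 6.06 ± 1.79 TPM. The 4 listed genes of the sodium leak channel complex were all detected. Nalcn stood at 76.4 ± 3.93, Unc79 at 67.8 ± 6.16, Unc80 at 179 ± 21.7 and Fam155a at 162 ± 15.0 TPM.

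**Figure D5:**
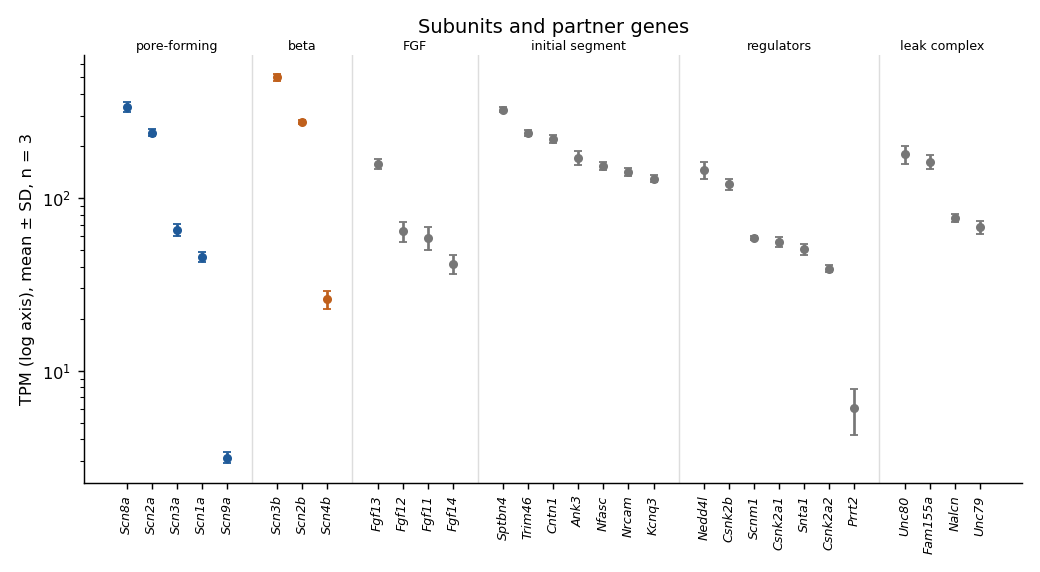
Mean TPM with SD (n = 3) on a log axis for the sodium channel genes in color and for genes of the partner lists in grey. The initial segment genes lie between 129 and 324 TPM, in the range of Scn2a and Scn8a or somewhat below, and Prrt2 is the lowest partner at 6.06 TPM.

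The labelled cell type was checked against marker genes. All 8 markers of CA1 pyramidal neurons were detected, with a median of 242 ± 8.08 TPM (SD, n = 3). All 6 markers of dentate granule neurons were detected as well, at a median of 106 ± 9.26 TPM. The 4 general excitatory markers were all detected, at a median of 1464 ± 37.7 TPM. The same rule detected 71.3% of nuclear protein-coding genes with any count. The sorted libraries thus carried markers of both CA1 and dentate granule neurons, with the CA1 list higher. Markers of glia were detected too and are given below. In bulk RNA, fewer cells of a type and less RNA per cell cannot be told apart.

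Markers of inhibitory interneurons stand beside Scn1a, since that cell type is known for this channel. Of 6 interneuron markers 1 was detected, Gad1, an enzyme of GABA synthesis. The summed level over the list was 68.0, 48.6 and 85.9 TPM in replicates 1, 2 and 3, when Scn1a stood at 44.4, 43.1 and 49.0 TPM. Slc32a1, the vesicular GABA transporter, had 19, 0 and 0 counts, Vip 24, 0 and 0, and Pvalb 3, 1 and 3. Gad1 alone stood at 54.3, 43.0 and 59.1 TPM and gave most of the sum. Gad2, the other enzyme of GABA synthesis, stood at 2.31, 0.539 and 1.72 TPM. Sst, another marker of the list, stood at 9.41, 4.91 and 23.9 TPM. Scn1a, Gad1, Sst and the sum were highest in replicate 3 and lowest in replicate 2. This order was not particular to them. Scn3a had it too, and so did the median deviation of genes of at least 8000 bp, at -0.02, -0.05 and 0.08. The log2 TPM of Scn1a deviated by -0.03, -0.08 and 0.11 in replicates 1, 2 and 3. Of the 6 markers, 3 were highest in replicate 3 and 3, Gad2, Slc32a1 and Vip, in replicate 1. The part of interneuron RNA in the Scn1a level was not tested.

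Markers of other cells were detected as well, 8 of 8 for oligodendrocytes, 6 of 7 for astrocytes and 4 of 4 for microglia. Of the endothelial markers 2 of 3 were detected, and of the oligodendrocyte precursor markers 1 of 2. The list medians were 60.9, 16.1, 10.9, 3.23 and 0.964 TPM in this order. The summed endothelial markers were 7.41, 13.8 and 60.2 TPM, the summed astrocyte markers 260, 162 and 327 TPM, the summed microglia markers 34.9, 44.0 and 48.8 TPM, and the summed oligodendrocyte markers 821, 905 and 811 TPM. Precursors of oligodendrocytes stayed at 1.55 to 2.51 TPM in sum. The ratio of highest to lowest library was 8.13 for the endothelial sum, 2.01 for the astrocyte sum, 1.40 for the microglia sum and 1.12 for the oligodendrocyte sum, against 1.05 to 1.25 for the 8 sodium channel genes. The oligodendrocyte sum was led by Mbp, at 317, 467 and 321 TPM, and hides markers that went different ways. Of the 8 oligodendrocyte markers, 5 were highest in replicate 1, 2 in replicate 2 and 1 in replicate 3, while 5 were lowest in replicate 2. The endothelial and microglia sums were highest in replicate 3 and lowest in replicate 1. Of the 4 microglia markers, 3 were highest in replicate 3 and 1 in replicate 2, while 3 were lowest in replicate 1 and 1 in replicate 2. Among the 8 sodium channel genes, 4 had the order of the sums, Scn2a, Scn8a, Scn9a and Scn4b. Replicate 3 was the highest for 46.6% of all detected protein-coding genes and for 66.6% of those of at least 8000 bp. Replicate 1 was the lowest for 31.3% of all detected protein-coding genes, and the share with both was not counted. The part of these other cells in the sodium channel levels was not tested.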

How the data were processed

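Poly(A) RNA of 3 libraries of sorted cells was analysed. The deposited columns hold raw counts for each gene, not normalized, made by the authors with STAR and featureCounts on mm10 (GRCm38), for which no versions are given. Per the file headers, the table also holds the merged exon length of each gene. The annotation release, strand, multimapping and read or fragment counting are not given in the sources used here. GENCODE vM21 named 52489 of 52636 IDs, and the merged exons of all 8 sodium channel genes equalled those of that release. With the version of the ID included, 49121 of the 52636 matched, so the match to that release was not complete. Replicate numbers came from the sample titles, and 0 columns were left out.

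TPM was computed over nuclear protein-coding genes, since Gm23935, a noncoding feature, took 32.7%, 48.3% and 40.5% of TPM over all genes. For coefficients of variation, counts were divided by size factors (median of ratios) of 1.78, 0.963 and 0.592. With 1 group, levels were described without a test between conditions. Neighbours in the order were compared within libraries by an exact sign-flip permutation test. Intervals are exact 95% Poisson intervals. The limit for a count of 0 was a fixed 3 counts, below the 3.69 counts at which that interval ends. Named genes were the 8 channel genes, further sodium channel genes, partner lists and cell type markers. The members and lists were chosen with earlier results of these data known, and the denominator of the detected share (genes with any count, in place of all nuclear protein-coding genes) after its value was seen. Some genes of these lists are not reported here. No ranking of other genes by likeness was made, since 3 replicates of 1 condition give no pattern across conditions. Alternatives were scaling, length, pseudocount, detection rule and left-out replicates. Size factors, TPM and variation were tested on simulated data. Python 3.11.15, numpy 2.4.6, pandas 2.3.3, scipy 1.17.1, matplotlib 3.10.9, R 4.3.3 and edgeR 4.0.16 (TMM factors only) were used.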

Additional observations from a re-analysis of the deposited data

How the results depend on the processing

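No paired comparison of conditions was possible because there is only 1 group. The comparisons of neighbours are paired by library and are between genes. The coding length from RefSeq proteins was not run, and the coding bases of GENCODE vM21 and the longest transcript were chosen after seeing the data. In 250 alternatives for 42 results, 161 values stayed within the spread set for the result, or within 1.5 times for counts. Another 83 moved beyond it and 6 turned sign. For levels, steps and shares this spread was the SD over replicates. A coefficient of variation has no value per replicate, so its limit was set otherwise. Of the 48 alternatives to single levels, 24 moved, all of them changes of unit to TPM over all genes or RPKM. All 8 genes stayed detected under each other detection rule and without each replicate. Leaving out replicates kept every step of the order and every share within its spread. The cause of the shifts below is the length divided by, since nothing else changes, except where a pseudocount is named.

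With no length, the log2 steps were -0.96 from Scn3b to Scn8a, 2.04 from Scn8a to Scn2b, -1.24 from Scn2b to Scn2a, 0.68 from Scn3a to Scn1a, 1.98 from Scn1a to Scn4b and 1.68 from Scn4b to Scn9a. With the coding length they were 2.29, -1.21, 2.00, 0.72, -1.17 and 4.84 for the same steps. With the longest transcript they were 0.50, 0.75, -0.30, 0.49, 1.23 and 2.66, and 2.00 from Scn2a to Scn3a. A pseudocount of 1 lowered the step from Scn4b to Scn9a to 2.69. The share of the pore-forming sum was 5.24% for Scn1a, 31.4% for Scn2a, 8.39% for Scn3a, 54.6% for Scn8a and 0.414% for Scn9a with no length. With the coding length it was 5.26%, 31.4%, 8.64%, 54.3% and 0.412%, and with the longest transcript 35.7% for Scn2a, 8.92% for Scn3a and 0.428% for Scn9a. The share of the beta sum was 31.05% for Scn2b and 65.8% for Scn3b with no length, 31.1% and 66.0% with the coding length, and 28.8%, 68.5% and 2.70% (Scn4b) with the longest transcript. Without length, the place among detected genes went from 442 to 55 for Scn8a, 751 to 168 for Scn2a, 3921 to 1307 for Scn3a and 5401 to 2365 for Scn1a. The log2 ratio of beta to pore-forming genes was -1.23, 2.01 and 0.0073 with no length, the coding length and the longest transcript. Depth limits Scn9a and the pore-forming genes outside the 8, and leaves the others with counting errors of 4.34% or less.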
